A study of Mus musculus with 9 samples.

Results

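The genes described here are 44 cell cycle genes, 12 of DNA replication and entry into S phase and 32 of mitosis, among the 21989 genes of an expression table from mouse aortic arch. They were chosen by name from known function, with earlier results of these data known, and all 44 were found in the table. The RNA sequencing libraries number 9, in 3 groups of 3, and all carry the same batch label. The high dose libraries came from ApoE-/- mice fed a high-fat diet for 15 weeks and given ZCL by gavage at 5.12 g/kg/day; the series title names the plant Ziziphora clinopodioides Lam. The model libraries came from ApoE-/- mice on the same diet over the same 15 weeks with no stated treatment. Controls were C57BL/6J mice that ate a standard diet, so genotype and diet differ together between model and control. ApoE-/- mice lack apolipoprotein E, a ligand for lipoprotein clearance, and form plaques in the aortic arch; the labels give no age. The labels do not state whether replicate libraries are different mice, and a p-value here therefore reflects spread among libraries that may be technical.

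A dividing cell first licenses and copies its DNA and then separates the copies. The replication genes are switched on by E2F factors late in G1. Most mitotic genes are held silent in resting cells through the cell cycle genes homology region (CHR) of their promoters. Many of these promoters also hold CCAAT boxes. In G2 the mitotic genes are activated by the MuvB-B-MYB complex and FOXM1. In the adult artery few cells divide, while in plaques dividing macrophages and smooth muscle cells are well described. In bulk tissue, fewer dividing cells and less RNA per cell cannot be told apart.

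Promoters from RefSeq (GRCm38.p6) are printed to show the motifs of the mitotic and replication genes. Ccnb2 and Tk1 are the mitotic and the replication member of lowest p in the comparison of model with control among those with a promoter used. Tk1 had no match, so Rrm2 was added as the replication member of next lowest p whose promoter held one; E2f1 and Tyms came before it and held none. Each run covers 250 bases before to 50 after the start site and reads 5′ to 3′ on the gene's strand. Capitals mark matches on either strand. The letters searched were TTTGAA and its variant spelling TTCGAA for the CHR and CCAAT for the CCAAT box. For the E2F core they were TTGGCGC with the related spellings TTCGCGC or TTCCCGC or else TTGCCGC. Read on the other strand, CCAAT can share letters with an E2F core, but no matches overlapped in the runs printed. Ccnb2 encodes cyclin B2 and lies on the minus strand (chr9:70421505-70421804). Tk1 encodes cytosolic thymidine kinase, also on the minus strand (chr11:117825965-117826264), and had none of these letters in the window. Rrm2 encodes the small subunit of ribonucleotide reductase and lies on the plus strand (chr12:24708004-24708303).
Ccnb2 promoter: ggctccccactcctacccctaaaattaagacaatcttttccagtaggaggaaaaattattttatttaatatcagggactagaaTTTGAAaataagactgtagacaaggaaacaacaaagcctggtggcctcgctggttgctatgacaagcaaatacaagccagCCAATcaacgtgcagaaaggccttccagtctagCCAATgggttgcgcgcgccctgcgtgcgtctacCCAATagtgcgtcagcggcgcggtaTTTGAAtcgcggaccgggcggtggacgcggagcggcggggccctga
Tk1 promoter: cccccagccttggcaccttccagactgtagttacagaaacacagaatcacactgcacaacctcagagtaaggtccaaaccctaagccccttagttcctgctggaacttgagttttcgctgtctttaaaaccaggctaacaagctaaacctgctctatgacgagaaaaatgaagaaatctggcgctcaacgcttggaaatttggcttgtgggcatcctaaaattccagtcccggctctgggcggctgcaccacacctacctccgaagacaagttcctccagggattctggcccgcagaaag
Rrm2 promoter: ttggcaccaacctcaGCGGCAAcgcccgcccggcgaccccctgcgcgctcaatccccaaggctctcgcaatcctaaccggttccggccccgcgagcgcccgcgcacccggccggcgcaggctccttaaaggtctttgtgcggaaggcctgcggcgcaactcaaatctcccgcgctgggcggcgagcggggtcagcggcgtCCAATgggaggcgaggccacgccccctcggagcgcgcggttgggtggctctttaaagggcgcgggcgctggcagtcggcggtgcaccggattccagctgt
The Ccnb2 run holds 2 CHR and 3 CCAAT matches, the nearest CHR beginning 4 bases after the start site and the CCAAT matches 87, 54 and 21 bases before it. The Rrm2 run holds 1 CCAAT and 1 E2F match, 50 and 235 bases before the start. Of the 37 members with a promoter used, a CHR match stood in 22 of 27 mitotic members (81.5%) and in 2 of 10 replication members (20%), against 19.2% of all 32851 promoters. CCAAT stood in 24 of 27 mitotic members (88.9%) and 7 of 10 replication members (70%), against 37.4% of all. E2F core letters showed the other order, with 5 of 27 mitotic members (18.5%) and 5 of 10 replication members (50%), against 9.57% of all promoters. Members were counted once per gene, by a match in any promoter used for it, while the shares of all are per promoter. A match is a description of letters, not a bound site.

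Levels are FPKM, fragments divided by the length of the gene and the library's total, and differences are between group means of log2(FPKM + 1), with the standard error from limma, an empirical Bayes linear model over all genes. The log scale with 1 added understates the differences of low genes. Whole fragments recovered from the FPKM steps summed to between 11653106 (control 2) and 20679832 (model 1) a library, and 38 of the 44 members reached 1 FPKM in 3 libraries and entered the test. Apoe, the deleted gene, had 25.4 to 93.7 FPKM in the high dose libraries and 18.9 to 33.4 FPKM in the model libraries, against 340 to 1006 FPKM in the control libraries. Smooth muscle Myh11 was read in every library (49.2 to 449 FPKM), as was endothelial Pecam1 (118 to 198 FPKM). Heart muscle Myh6 stood at 634 and 1554 FPKM in high dose 2 and 3 and at 2729 and 807 FPKM in control 1 and 2, against 1.85 to 6.34 FPKM in the other 5 libraries.

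Control 2 stood apart for these genes. It was above both other controls in 11 of 12 replication members and 32 of 32 mitotic members, against 56.1% of the 12895 genes tested. The same library had the highest summed B and plasma cell and T cell markers of the series. Cd79a stood there at 66.4 FPKM and Cd3e at 13.6 FPKM. Of the same lists, Il7r was highest in model 1, Cd2 (0.435 FPKM) in model 2 and Mzb1 in high dose 2. Airway Scgb1a1 stood at 20438 FPKM in high dose 2 and 6425 FPKM in control 2, against at most 68.6 FPKM elsewhere. The 9 thymocyte markers summed to 37.2 FPKM in control 2, the highest of the series, followed by 18.4 FPKM in high dose 1. Of that list, Rag2, Dntt and Ptcra were at 0 in control 2 and Rag1 at 0.0125 FPKM. Tcf7 (23.2 FPKM), Satb1 (7.699 FPKM) and Themis (2.23 FPKM), which thymocytes and mature T cells both express, were highest in control 2. The part of these other cells in the level of the cell cycle genes was not tested. The medians of both member sets against the controls, and some counts of genes, are given with and without control 2. Unless stated, all other results on the controls include control 2.

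The members ran from 0 FPKM to 64.0 FPKM, and the mitotic genes were the lower set.

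**Figure D1:**
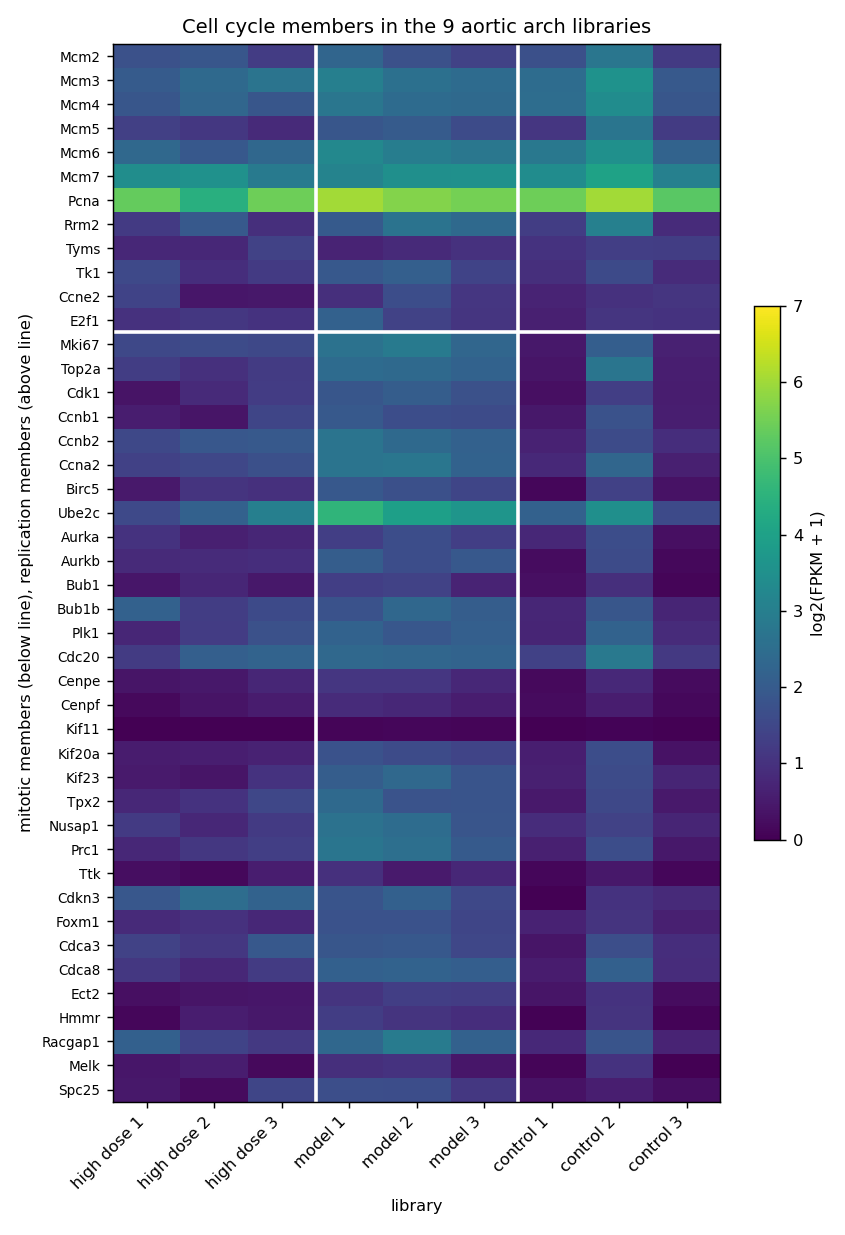
Level of each member, as log2(FPKM + 1), in the 9 libraries (columns, by group) with the 12 replication members above the white line and the 32 mitotic members below it. Brighter cells are higher: most mitotic rows are brightest in the model columns and in control 2, and Pcna is the brightest row.

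At 1 FPKM or more stood 13, 14 and 19 of the 32 mitotic members in high dose 1, 2 and 3 and 28, 29 and 25 in the model libraries, against 2, 26 and 2 in the control libraries. Fragments on all mitotic members came to 1695, 1575 and 2073 in the high dose libraries and 7159, 5740 and 3653 in the model libraries, against 724, 2747 and 582 in the control libraries. Model libraries thus held more than any high dose library and, apart from control 2, several times more than the controls. These counts are not scaled by depth. The FPKM of the mitotic members summed to 32.5, 36.6 and 49.5 in the high dose libraries and 112.5, 103.9 and 78.0 in the model libraries. In the control libraries these sums were 16.3, 73.4 and 15.6 FPKM, so control 2 came close to model 3. The 12 replication members reached 1 FPKM in 9 to 12 cases in every library, so their levels are the better measured.

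Averaged over the 12 replication members, log2(FPKM + 1) was 2.00, 1.90 and 1.86 in the high dose libraries and 2.51, 2.47 and 2.22 in the model libraries, against 2.00, 2.83 and 1.82 in the control libraries. The model libraries lay above all high dose libraries, while the controls ran on either side of them. Over the 32 mitotic members the mean was 0.89, 0.96 and 1.19 in the high dose libraries and 1.92, 1.88 and 1.60 in the model libraries, against 0.52, 1.53 and 0.53 in the control libraries. Every model library lay above every high dose and every control library on this measure.

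**Figure D2:**
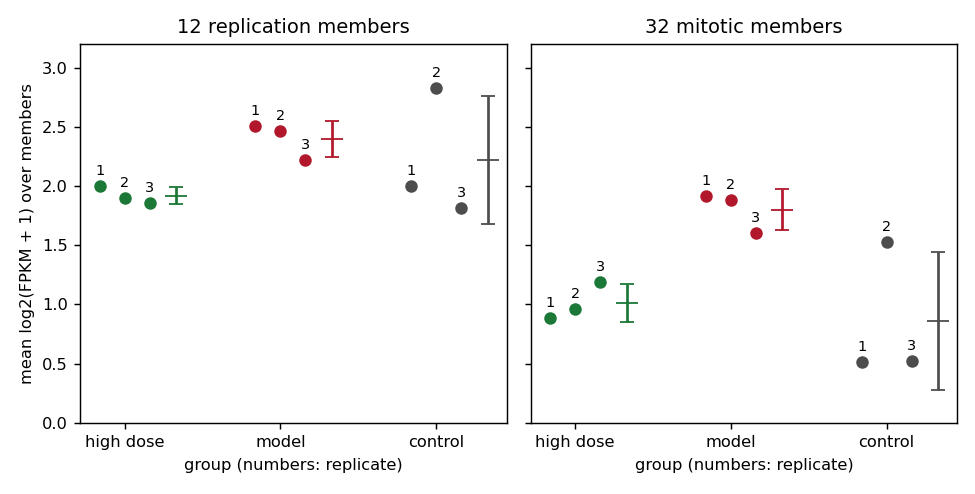
Mean log2(FPKM + 1) over the 12 replication members (left) and the 32 mitotic members (right) in each library (points, numbered by replicate), with the group mean and SD (bars, n = 3). The model libraries lie between 1.60 and 1.92 for the mitotic members, above all other libraries, and control 2 is the highest point for the replication members.

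The mitotic mean minus the replication mean was -1.11, -0.94 and -0.67 in the high dose libraries and -0.59, -0.58 and -0.62 in the model libraries, against -1.49, -1.30 and -1.29 in the control libraries. The 3 groups did not overlap on this difference, and control 2, high for both sets, sat with the other controls. With 0.1 in place of 1 added before the log the difference was -1.82, -1.47 and -0.979 in the high dose libraries and -0.728, -0.754 and -0.823 in the model libraries, against -2.59, -1.67 and -2.36 in the control libraries. There high dose 1 was below control 2, and the model libraries were above the rest. No test was run on these means, since the members were chosen with results of these data known.

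High dose against model compares libraries with and without ZCL on the same genotype and diet. The tissue in the libraries differed too. Heart muscle markers summed to 24.9, 9662 and 16220 FPKM in the high dose and 43.1 to 83.1 FPKM in the model libraries. Nerve and catecholamine cell markers summed to 2573, 248 and 19.3 FPKM in the high dose and 5.36 to 8.995 FPKM in the model libraries. ZCL and tissue thus differ together, and the part of either was not tested. The high dose libraries had lower values than the model libraries in 31 of 32 mitotic members and 11 of 12 replication members. The median log2 difference was -0.83 for the mitotic members (range -1.82 to 0.38) and -0.50 for the replication members (range -0.98 to 0.14), against 0.0008 for all genes tested. No overlap, with every high dose library below every model library, held for 24 of 32 mitotic and 5 of 12 replication members, against 10.9% of all genes tested. Counts without overlap, here and below, take in listed genes outside the test, while the shares cover only genes tested. Among the 24 these were Cenpe, Cenpf and Kif11. No member lay higher in that way, against 11.7% of all genes. No gene passed limma's test at an adjusted p of 0.05 (0 members, 0% of 12895 genes), where 884 genes were higher and 845 lower at an unadjusted p under 0.05; limma-voom on recovered fragments also called 0 genes. Without the filter on low values, 20 of 44 members were lower at an unadjusted p under 0.05, against 5.36% of 18738 genes.

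**Figure D3:**
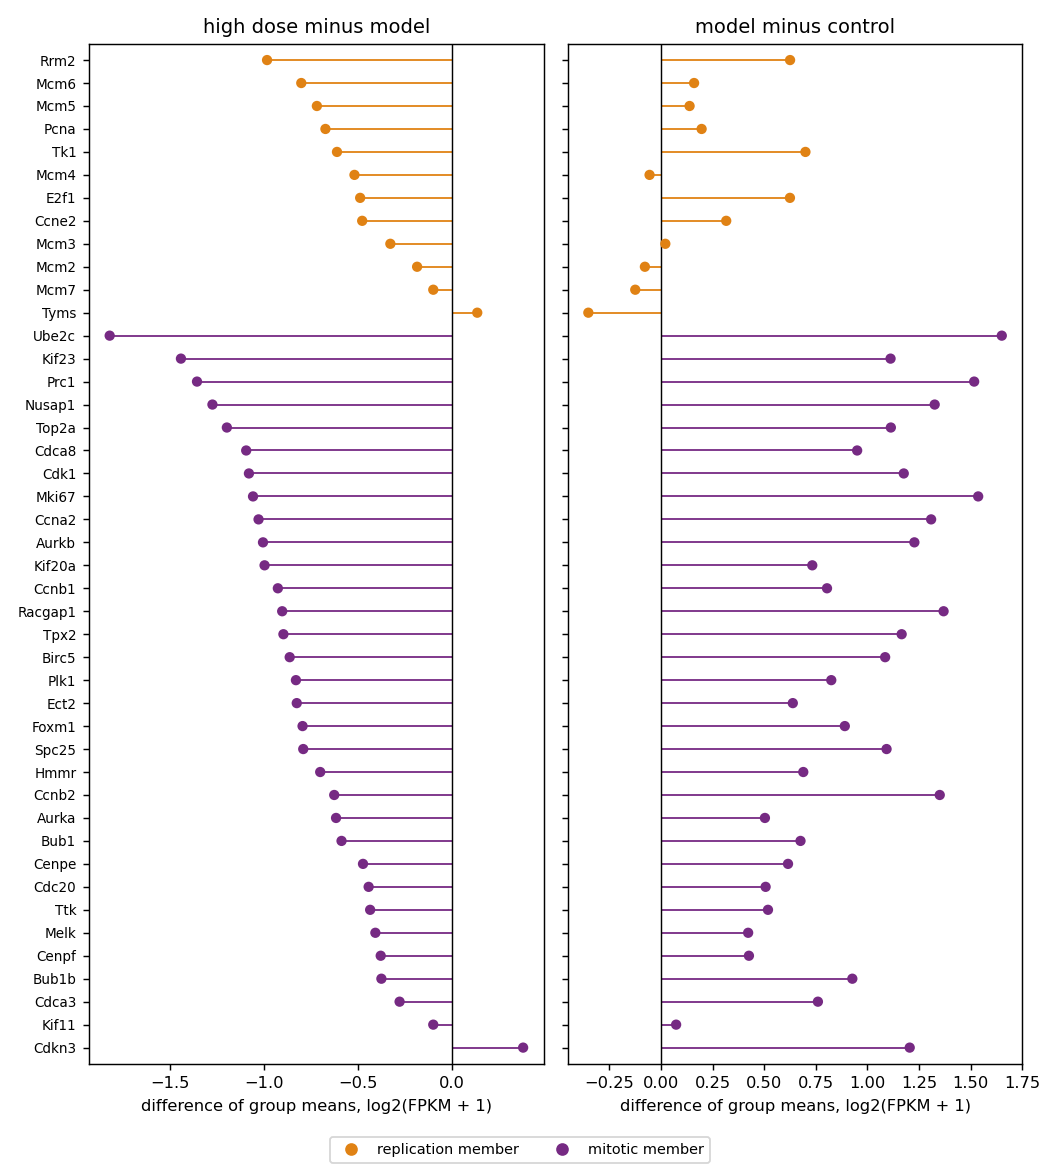
Difference of group means on the log2(FPKM + 1) scale for each of the 44 members, high dose minus model on the left and model minus control on the right, in orange for replication and purple for mitotic members. Only Tyms and Cdkn3 lie right of 0 on the left side, and 4 replication members lie left of 0 on the right side.

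Without model 1, the deepest library, the same counts of members stood below without overlap, 24 mitotic and 5 replication, with medians of -0.75 and -0.47, but with 2 model libraries 19.8% of all genes tested did so; no member lay higher in that way, against 17.3%.

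Model against control asks how ApoE-/- arches on the high-fat diet differ from C57BL/6J arches. Values were higher in the model in 32 of 32 mitotic members, with a median log2 difference of 0.94 (range 0.07 to 1.65). The replication members split, 8 higher and 4 lower, with a median of 0.15 (range -0.35 to 0.70), against -0.01 for all genes tested. Single libraries decided that median, which was 0.045 without model 1, 0.088 without model 2 and 0.26 without model 3, and 0.035 without control 1, 0.45 without control 2 and -0.12 without control 3. In 17 of 32 mitotic members and 0 of 12 replication members every model library was above every control library, against 6.91% of all genes tested. Of the 17, Kif11 and Ttk did not enter the test. Tyms lay below without overlap, as did 9.06% of all genes. Here too no gene passed limma's test (0 members, 0% of 12895 genes), with 467 genes higher and 354 lower at an unadjusted p under 0.05, and limma-voom called 0. Without the filter, 23 of 44 members were higher at an unadjusted p under 0.05, against 3.27% of 18738 genes.

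Leaving out control 2 moved both sets. Then 32 of 32 mitotic and 5 of 12 replication members lay above the controls without overlap, against 21.7% of all genes tested, and the medians were 1.30 and 0.45, against 0.08 for all genes tested. limma still called 0 genes, with a smallest adjusted p of 0.299 and 982 genes at an unadjusted p under 0.05. With limma's array weights, which down-weight libraries that stray from their group, 16 members passed, all higher in the model, as did 2.02% of all genes in that direction. Those weights ran from 0.379 for control 3 to 5.92 for model 2, with 0.6455 for model 1, 2.003 for control 1 and 0.661 for control 2. Of the mitotic members, 15 were highest in model 1, 12 in model 2, 4 in control 2 and 1 in high dose 2. The part of the weights in these calls was not tested.

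The high dose and control libraries lay closer together. In the mitotic set 21 members were higher and 11 lower in the high dose group, with a median log2 difference of 0.09, and in the replication set 2 were higher and 10 lower, with a median of -0.28; the median of all genes tested was 0.002. Only Cdkn3 lay above all controls in every high dose library, against 3.66% of all genes, and no member lay below, against 5.02%. No gene passed limma's test (0 members, 0% of 12895 genes), with 340 genes higher and 361 lower at an unadjusted p under 0.05, and limma-voom called 0. Without the filter, 2 of 44 members were higher at an unadjusted p under 0.05, against 2.6% of 18738 genes. Without control 2, the high dose group was higher in 30 of 32 mitotic members, 18 without overlap against 14.5% of all genes tested, with a median of 0.37 against 0.10 for all genes tested, and in 6 of 12 replication members, with a median of -0.01. The mitotic median of 0.09 changed sign when certain other libraries were left out, at -0.023 without high dose 3, -0.0029 without control 1 and -0.037 without control 3, and was 0.18 without high dose 1. The replication median was -0.63 without control 3. No member lay below without overlap when control 2 was left out, against 7.3% of all genes tested. The 3 comparisons share their libraries in pairs, so their differences are not independent of each other.

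Among the replication genes, the Mcm2 to Mcm7 proteins form the ring of the replicative helicase. Mcm6 had 4.19, 2.77 and 4.09 FPKM in the high dose libraries and 8.696, 6.89 and 5.89 FPKM in the model libraries, against 6.04, 10.4 and 3.7001 FPKM in the control libraries. All high dose libraries were below all model libraries, and the controls spanned nearly the whole range. Its log2 difference was -0.80 ± 0.33 for high dose minus model, 0.16 ± 0.33 for model minus control and -0.64 ± 0.33 for high dose minus control. Mcm5 had 1.51, 1.22 and 0.797 FPKM in the high dose libraries and 2.68, 2.995 and 2.02 FPKM in the model libraries, against 1.15, 5.64 and 1.33 FPKM in the control libraries. It too was below the model in every high dose library, with control 2 above everything else. Its differences were -0.72 ± 0.42 for high dose minus model, 0.14 ± 0.42 for model minus control and -0.58 ± 0.42 for high dose minus control.

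Mcm4 followed the same pattern, with 2.68, 3.92 and 2.64 FPKM in the high dose libraries and 5.698, 4.47 and 4.29 FPKM in the model libraries, against 4.61, 9.65 and 2.64 FPKM in the control libraries. The difference of high dose minus control was -0.57 ± 0.37. Mcm2 had 2.31, 2.68 and 1.38 FPKM in the high dose libraries and 3.89, 2.36 and 1.58 FPKM in the model libraries, against 2.29, 5.66 and 1.28 FPKM in the control libraries. Its groups overlapped in each comparison, at -0.18 ± 0.42 for high dose minus model, -0.08 ± 0.42 for model minus control and -0.26 ± 0.42 for high dose minus control. Mcm3 ran from 2.88 to 10.8 FPKM and Mcm7 from 6.29 to 15.3 FPKM over the 9 libraries, with overlap everywhere; control 2 was the highest library for each Mcm gene. Without control 2, Mcm5 lay above the controls in all model libraries, and the other Mcm genes still overlapped. Limma's adjusted p for the 6 Mcm genes was 0.362 to 0.905 for high dose against model and 0.959 to 0.999 for model against control.

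Pcna, the sliding clamp of the polymerases, was the most abundant member per length, with 39.9, 20.5 and 43.1 FPKM in the high dose libraries and 64.02, 50.6 and 45.7 FPKM in the model libraries, against 42.7, 63.9 and 35.7 FPKM in the control libraries. High dose 2 was lowest, and every high dose library was below every model library. The log2 difference was -0.67 ± 0.33 for high dose minus model, 0.20 ± 0.33 for model minus control and -0.48 ± 0.33 for high dose minus control, with limma adjusted p of 0.400, 0.946 and 0.888.

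**Figure D4:**
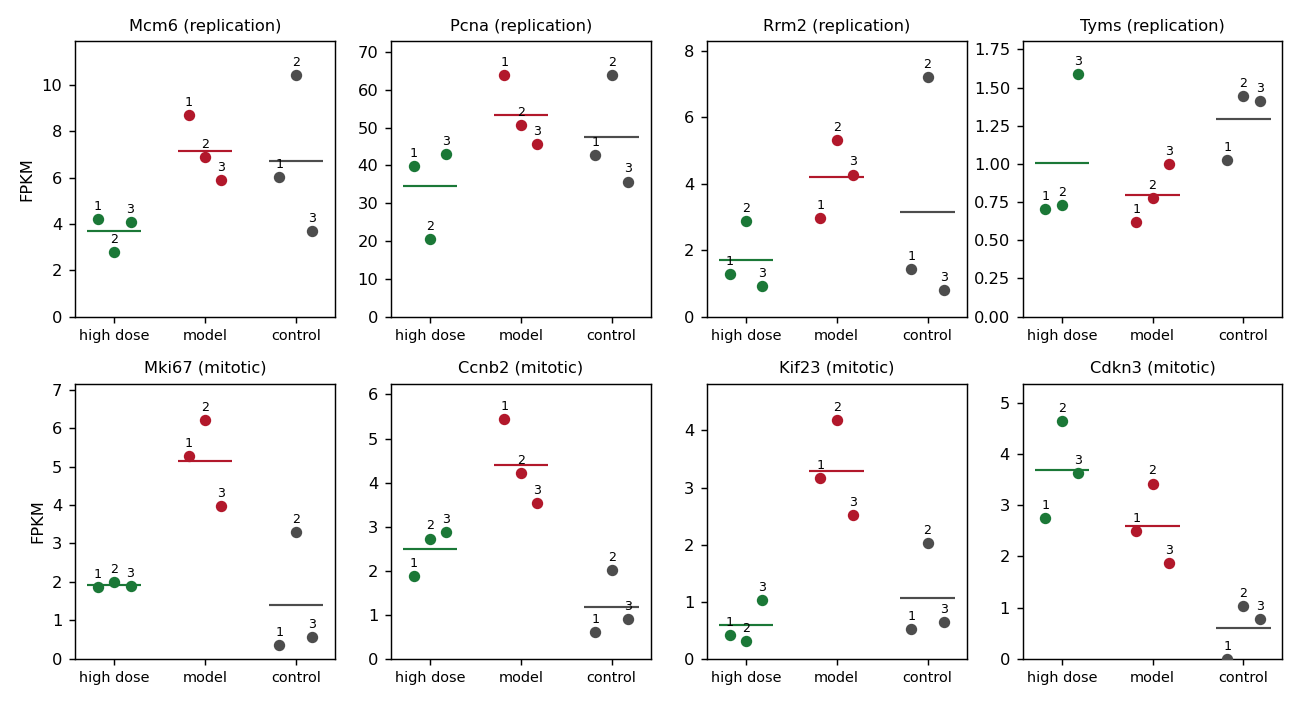
FPKM of 4 replication members (top row) and 4 mitotic members (bottom row) in each library, numbered by replicate, with a line at each group mean. Mki67, Ccnb2 and Kif23 have their 3 model libraries above all others, Tyms has its model libraries below all controls, and Cdkn3 has its high dose and model libraries above all controls.

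Rrm2, which makes deoxynucleotides with Rrm1, had 1.29, 2.88 and 0.926 FPKM in the high dose libraries and 2.97, 5.32 and 4.28 FPKM in the model libraries, against 1.43, 7.21 and 0.812 FPKM in the control libraries. Control 2 was highest, and high dose 2 was just under the lowest model library. Its differences were -0.98 ± 0.55 for high dose minus model, 0.63 ± 0.55 for model minus control and -0.36 ± 0.55 for high dose minus control. Tk1 salvages thymidine and had 1.92, 0.877 and 1.28 FPKM in the high dose libraries and 2.82, 3.38 and 1.66 FPKM in the model libraries, against 0.913, 1.97 and 0.828 FPKM in the control libraries. Its highest 2 libraries were model 1 and 2, but model 3 overlapped with high dose 1 and control 2. The differences of Tk1 were -0.61 ± 0.31 for high dose minus model, 0.70 ± 0.31 for model minus control and 0.09 ± 0.31 for high dose minus control.

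Tyms, thymidylate synthase, did not follow the other replication genes. It had 0.702, 0.729 and 1.59 FPKM in the high dose libraries and 0.618, 0.774 and 0.997 FPKM in the model libraries, against 1.02, 1.44 and 1.41 FPKM in the control libraries. All model libraries were below all controls, and high dose 3 was the highest of the 9. Its differences were 0.14 ± 0.26 for high dose minus model, -0.35 ± 0.26 for model minus control and -0.22 ± 0.26 for high dose minus control, with limma adjusted p of 0.833, 0.840 and 0.927. E2f1, an activator of S phase genes, had 0.989, 1.18 and 1.04 FPKM in the high dose libraries and 3.498, 1.59 and 1.096 FPKM in the model libraries, against 0.542, 1.11 and 1.04 FPKM in the control libraries. Its high model mean came from model 1, and model 3 was level with the high dose libraries. The differences of E2f1 were -0.49 ± 0.32 for high dose minus model, 0.62 ± 0.32 for model minus control and 0.14 ± 0.32 for high dose minus control. Ccne2, the cyclin that drives S phase entry with Cdk2, ranged from 0.341 to 2.15 FPKM and was highest in model 2 and high dose 1.

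The mitotic genes start with the marker most used for dividing cells. Mki67, which coats mitotic chromosomes, had 1.87, 2.01 and 1.88 FPKM in the high dose libraries and 5.28, 6.21 and 3.97 FPKM in the model libraries, against 0.3695, 3.29 and 0.571 FPKM in the control libraries. The high dose libraries were tightly grouped, all model libraries were above them and above the controls, and control 2 stood well above its group. In fold of mean FPKM the model was 3.66 times the control and the high dose group 0.373 times the model. Its log2 difference was -1.06 ± 0.41 for high dose minus model, 1.54 ± 0.41 for model minus control and 0.48 ± 0.41 for high dose minus control, with limma adjusted p of 0.350, 0.688 and 0.893. Top2a, which untangles sister chromatids, had 1.43, 0.962 and 1.31 FPKM in the high dose libraries and 4.49, 4.24 and 3.63 FPKM in the model libraries, against 0.309, 5.62 and 0.515 FPKM in the control libraries. Control 2 was above every model library, and the other controls were the lowest of all. Its differences were -1.20 ± 0.55 for high dose minus model, 1.11 ± 0.55 for model minus control and -0.08 ± 0.55 for high dose minus control.

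Cdk1 is the kinase that triggers mitosis, and Ccna2, Ccnb1 and Ccnb2 encode its cyclins. Cdk1 had 0.30005, 0.772 and 1.36 FPKM in the high dose libraries and 2.68, 3.17 and 2.35 FPKM in the model libraries, against 0.218, 1.47 and 0.484 FPKM in the control libraries. The model libraries were above all others, with differences of -1.08 ± 0.34 for high dose minus model, 1.18 ± 0.34 for model minus control and 0.10 ± 0.34 for high dose minus control. Ccnb2 had 1.87, 2.73 and 2.88 FPKM in the high dose libraries and 5.44, 4.22 and 3.54 FPKM in the model libraries, against 0.606, 2.02 and 0.899 FPKM in the control libraries. The model libraries were above all others, and high dose 1 was the only high dose library below control 2. Its differences were -0.63 ± 0.29 for high dose minus model, 1.35 ± 0.29 for model minus control and 0.72 ± 0.29 for high dose minus control, with limma adjusted p of 0.384, 0.688 and 0.870. This was the smallest unadjusted p of the members in model against control. Ccnb1 had 0.476, 0.328 and 1.77 FPKM in the high dose libraries and 2.86, 2.17 and 2.04 FPKM in the model libraries, against 0.376, 2.396 and 0.499 FPKM in the control libraries. Control 2 was inside the model range, and the differences were -0.93 ± 0.42 for high dose minus model, 0.80 ± 0.42 for model minus control and -0.12 ± 0.42 for high dose minus control. Ccna2 ranged from 1.55 to 2.28 FPKM in the high dose libraries and from 3.62 to 5.69 FPKM in the model libraries, against 0.526 to 3.97 FPKM in the control libraries, where control 2 reached into the model range.

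Cdkn3, a phosphatase that removes an activating phosphate from Cdk kinases, was the exception among the mitotic genes. It had 2.75, 4.65 and 3.63 FPKM in the high dose libraries and 2.4997, 3.42 and 1.87 FPKM in the model libraries, against 0, 1.04 and 0.778 FPKM in the control libraries. The high dose libraries overlapped with the model libraries and both groups were above every control. The counts behind it were low, 25 to 60 fragments in those 6 libraries and 0, 11 and 9 in the control libraries. Its difference was 0.38 ± 0.33 for high dose minus model, 1.21 ± 0.33 for model minus control and 1.59 ± 0.33 for high dose minus control, with limma adjusted p of 0.608, 0.688 and 0.569. Foxm1, the transcription factor of the late mitotic genes, had 0.772, 1.01 and 0.725 FPKM in the high dose libraries and 2.42, 2.39 and 1.77 FPKM in the model libraries, against 0.585, 1.08 and 0.529 FPKM in the control libraries. All model libraries stood above all others. Its differences were -0.79 ± 0.24 for high dose minus model, 0.89 ± 0.24 for model minus control and 0.10 ± 0.24 for high dose minus control, with limma adjusted p of 0.279, 0.688 and 0.969.

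The chromosomal passenger complex, which corrects faulty spindle attachments, was represented by Aurkb, Birc5 and Cdca8. Aurkb, its kinase, had 0.789, 0.824 and 0.897 FPKM in the high dose libraries and 3.198, 2.13 and 2.82 FPKM in the model libraries, against 0.172, 2.01 and 0.106 FPKM in the control libraries. All model libraries were above all others, with differences of -1.005 ± 0.39 for high dose minus model, 1.23 ± 0.39 for model minus control and 0.22 ± 0.39 for high dose minus control. Birc5, or survivin, had 0.395, 1.09 and 0.946 FPKM in the high dose libraries and 2.79, 2.297 and 1.74 FPKM in the model libraries, against 0.0911, 1.58 and 0.2704 FPKM in the control libraries. Its groups were ordered in the same way, at -0.86 ± 0.37 for high dose minus model, 1.09 ± 0.37 for model minus control and 0.22 ± 0.37 for high dose minus control. Cdca8, or borealin, ranged from 0.721 to 1.32 FPKM in the high dose libraries and from 3.28 to 3.57 FPKM in the model libraries, against 0.459 to 3.41 FPKM in the control libraries. Limma's adjusted p for the 3 genes was 0.327 to 0.367 for high dose against model and 0.708 to 0.749 for model against control.

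Among the kinases of the spindle poles and checkpoint, Plk1 had 0.692, 1.37 and 2.34 FPKM in the high dose libraries and 3.59, 2.75 and 3.37 FPKM in the model libraries, against 0.647, 3.57 and 0.7996 FPKM in the control libraries. The high dose libraries were below the model libraries, and control 2 was level with the model. Its differences were -0.83 ± 0.42 for high dose minus model, 0.82 ± 0.42 for model minus control and -0.005 ± 0.42 for high dose minus control. Aurka, which builds the spindle poles, spanned 0.537 to 1.04 FPKM in the high dose libraries and 1.46 to 2.14 FPKM in the model libraries, against 0.225 to 2.17 FPKM in the control libraries. Bub1b, a checkpoint protein that holds Cdc20, had 3.51, 1.42 and 1.97 FPKM in the high dose libraries and 2.37, 4.01 and 3.202 FPKM in the model libraries, against 0.693, 2.695 and 0.648 FPKM in the control libraries. High dose 1 was inside the model range, and the difference of high dose minus control was 0.55 ± 0.38. The checkpoint kinases Bub1 (0.0709 to 1.61 FPKM over the 9 libraries) and Ttk (0.0966 to 0.965 FPKM) were too low for the test, as was the kinase Melk (0 to 1.05 FPKM).

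Cdc20 and Ube2c belong to the machinery that destroys cyclins, Cdc20 as the activator of the anaphase-promoting complex and Ube2c as its ubiquitin-conjugating enzyme. Ube2c had 1.91, 3.48 and 7.08 FPKM in the high dose libraries and 23.03, 14.3 and 11.7 FPKM in the model libraries, against 3.54, 10.1 and 1.98 FPKM in the control libraries. It had the largest differences of any member, -1.82 ± 0.54 for high dose minus model and 1.65 ± 0.54 for model minus control, with limma adjusted p of 0.270 and 0.708; control 2 came close to the lowest model library. The gene overlaps Tnnc2 on the other strand, which had 4221 FPKM in high dose 2 and at most 79.7 FPKM elsewhere, while Ube2c in high dose 2 lay between its group's other libraries. Cdc20 had 1.34, 3.33 and 3.66 FPKM in the high dose libraries and 4.14, 3.94 and 3.66 FPKM in the model libraries, against 1.57, 6.13 and 1.25 FPKM in the control libraries. The groups overlapped throughout, at -0.44 ± 0.45 for high dose minus model, 0.51 ± 0.45 for model minus control and 0.06 ± 0.45 for high dose minus control.

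The central spindle genes set up cytokinesis. Kif23, a kinesin of the centralspindlin complex, had 0.422, 0.317 and 1.02 FPKM in the high dose libraries and 3.17, 4.19 and 2.52 FPKM in the model libraries, against 0.518, 2.03 and 0.641 FPKM in the control libraries. All high dose libraries were below all model libraries, with control 1 and 3 inside the high dose range and control 2 between the groups. The high dose mean was 0.179 times the model mean, and the model mean 3.10 times the control mean. Its difference was -1.44 ± 0.34 for high dose minus model, the smallest p of the members there, with a limma adjusted p of 0.203, and 1.11 ± 0.34 for model minus control. Prc1, which bundles midzone microtubules, had 0.709, 1.21 and 1.46 FPKM in the high dose libraries and 5.65, 4.88 and 2.98 FPKM in the model libraries, against 0.535, 2.17 and 0.365 FPKM in the control libraries. The model libraries were above all others, by -1.36 ± 0.37 for high dose minus model and 1.52 ± 0.37 for model minus control, with limma adjusted p of 0.251 and 0.688. Nusap1, a spindle microtubule bundler, had 1.27, 0.701 and 1.28 FPKM in the high dose libraries and 5.23, 4.59 and 2.58 FPKM in the model libraries, against 0.837, 1.599 and 0.656 FPKM in the control libraries. It was arranged in the same way, at -1.27 ± 0.30 for high dose minus model and 1.33 ± 0.30 for model minus control, with limma adjusted p of 0.207 and 0.688.

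Racgap1 is the partner of Kif23 in centralspindlin and Ect2 the exchange factor it recruits. Racgap1 ran from 1.23 to 3.42 FPKM in the high dose libraries and from 3.52 to 6.55 FPKM in the model libraries, against 0.628 to 2.496 FPKM in the control libraries. Ect2 ran from 0.217 to 0.334 FPKM in the high dose libraries and from 1.09 to 1.44 FPKM in the model libraries, against 0.182 to 1.05 FPKM in the control libraries. Neither gene overlapped between model and the other groups. Kif20a, a kinesin of the same structure, spanned 0.440 to 0.586 FPKM in the high dose libraries and 1.69 to 2.38 FPKM in the model libraries, against 0.256 to 2.15 FPKM in the control libraries.

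Of the spindle and kinetochore genes, Tpx2, which activates Aurka on microtubules, ranged from 0.716 to 1.79 FPKM in the high dose libraries and from 2.43 to 4.21 FPKM in the model libraries, against 0.385 to 1.87 FPKM in the control libraries. Hmmr, a spindle assembly factor, ranged from 0.0929 to 0.471 FPKM in the high dose libraries and from 0.875 to 1.399 FPKM in the model libraries, against 0.0314 to 1.08 FPKM in the control libraries. Spc25, a subunit of the Ndc80 complex, ranged from 0.149 to 1.75 FPKM in the high dose libraries and from 1.19 to 2.23 FPKM in the model libraries, against 0.208 to 0.501 FPKM in the control libraries. Tpx2 thus kept the model apart from both other groups, Hmmr from the high dose only and Spc25 from the controls only. Cdca3, a trigger of mitotic entry, ranged from 1.201 to 2.78 FPKM in the high dose libraries and from 1.80 to 2.80 FPKM in the model libraries, against 0.325 to 2.23 FPKM in the control libraries. The kinetochore genes Cenpe (0.135 to 1.17 FPKM) and Cenpf (0.0999 to 0.811 FPKM) did not reach the test, and in both the model libraries were above the high dose libraries. Kif11, the kinesin that pushes spindle poles apart, was listed at 0 in 5 libraries and rested on 14, 13 and 9 fragments in the model libraries and 6 in control 2.

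Several members overlap another protein-coding gene in GENCODE M21, and the strand setting of the counting is not stated, so reads there cannot be assigned with certainty. Besides Ube2c these are Mcm7 (with Cops6, at 52.4 to 116 FPKM, and Ap4m1), Tk1 (Afmid, at 0.830 to 6.20 FPKM), Nusap1 (Oip5, at 0.160 to 0.813 FPKM), Prc1 (Rccd1, at 2.42 to 4.91 FPKM), Ccna2 (Exosc9, at 9.68 to 18.9 FPKM), Cdc20 (Elovl1, at 10.5 to 30.1 FPKM), Ccne2 (Ints8, at 4.91 to 9.30 FPKM) and Kif20a (Cdc23, at 4.67 to 8.65 FPKM). Foxm1 and Cdca8 also share bases with a neighbour.

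Genes of the same processes outside the members were taken from lists by function, and 0 of them passed limma's test in any comparison. For high dose minus model, 48 of 58 other mitotic genes were lower, 27 without overlap, with a median log2 difference of -0.43. Of 37 other replication genes 19 were lower, 5 without overlap, with a median of -0.03. Over all genes tested, 10.9% were lower without overlap. In the same comparison 0 other mitotic and 4 other replication genes were higher without overlap, against 11.7% of all genes tested. For model minus control, 54 of 58 other mitotic genes were higher, 14 without overlap, with a median of 0.44. Of the other replication genes 22 of 37 were higher, 0 without overlap, with a median of 0.09. Over all genes tested, 6.91% were higher without overlap. In each of the 2 lists 1 gene was lower without overlap, against 9.06% of all genes tested. Without control 2 the counts higher without overlap were 49 of 58 and 14 of 37, against 21.7% of all genes tested. These lists too were written with earlier results of the data known and are no independent support.

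Pbk, a mitotic kinase, had the smallest p of these mitotic genes in high dose minus model, with 0.178, 0 and 0.4703 FPKM in the high dose libraries and 3.58, 2.01 and 1.63 FPKM in the model libraries, against 0.217, 1.03 and 0.403 FPKM in the control libraries. It was listed at 0 in high dose 2 and differed by -1.46 ± 0.33. Ccnf, a cyclin that directs protein destruction, differed by -0.83 ± 0.25 and Fam64a by -1.06 ± 0.32. Ccnf reached 1 FPKM in the model libraries only, with at most 0.622 FPKM elsewhere. It thus entered the test through the group where it was high, and its differences are a description only. In the other direction stood Pttg1, or securin, at 0.25 ± 0.25, Hmgb2 at 0.41 ± 0.43 and Cenpa at 0.35 ± 0.59. For model minus control, Fam64a was higher by 1.47 ± 0.32, Ccnf by 1.03 ± 0.25 and Ckap2 by 1.30 ± 0.34, while Pttg1 was at -0.72 ± 0.25, Cenpa at -0.20 ± 0.59 and Hmgb2 at -0.04 ± 0.43. For high dose minus control the lowest p were those of Incenp at 0.67 ± 0.34, Arhgap11a at 0.59 ± 0.37 and Knstrn at 0.46 ± 0.30, and of Pttg1 at -0.47 ± 0.25, Smc2 at -0.51 ± 0.32 and Hjurp at -0.36 ± 0.27. Pttg1 was far more abundant per length than the mitotic members, at 44.04, 37.5 and 47.5 FPKM in the high dose libraries and 28.8, 42.8 and 37.5 FPKM in the model libraries, against 81.4, 52.3 and 50.2 FPKM in the control libraries. Its model libraries were below every control, the opposite order to most mitotic genes.

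Among the other replication genes the lowest p in high dose minus model were Gins1, of the helicase's GINS ring, at 1.02 ± 0.27, Tipin at 0.44 ± 0.25 and Fen1 at 0.37 ± 0.31 on the higher side. On the lower side were Rrm1, the partner of Rrm2, at -0.52 ± 0.21, the histone mRNA binder Slbp at -0.72 ± 0.31 and Prim1 at -0.59 ± 0.33. Gins1 had 4.23, 4.799 and 3.14 FPKM in the high dose libraries and 2.09, 1.31 and 1.12 FPKM in the model libraries, against 1.12, 2.25 and 2.06 FPKM in the control libraries. All its high dose libraries were above all others, an order that no Mcm gene showed. For model minus control, Slbp was at 0.46 ± 0.31, Uhrf1 at 0.62 ± 0.50 and Chaf1b at 0.47 ± 0.40, and Tipin at -0.65 ± 0.25, Dut at -0.34 ± 0.34 and Pold1 at -0.19 ± 0.28. For high dose minus control, Gins1 was at 0.86 ± 0.27, Chaf1b at 0.81 ± 0.40 and Fen1 at 0.48 ± 0.31, and Rrm1 at -0.64 ± 0.21, Rfc3 at -0.54 ± 0.30 and Prim1 at -0.56 ± 0.33.

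Of 18 G1 cyclins, kinases and E2F genes, 12 were lower in high dose minus model (median -0.23) and 13 higher in model minus control (median 0.22). Of the cyclin D genes, Ccnd1 was at 0.32 ± 0.29 for high dose minus model and -0.11 ± 0.29 for model minus control, Ccnd2 at -0.24 ± 0.37 and -0.32 ± 0.37 for the same comparisons, and Ccnd3 at -0.44 ± 0.26 and -0.01 ± 0.26. Their partner Cdk4 was at 0.02 ± 0.38 and 0.14 ± 0.38, and Ccne1, the cyclin of S phase entry, at -0.04 ± 0.46 and 0.50 ± 0.46. The lowest p in high dose minus model were Cdk6 at -0.71 ± 0.23, E2f7 at -0.73 ± 0.28 and Cdc25a at -0.52 ± 0.22 on the lower side and Ccnd1, Myc at 0.41 ± 0.42 and E2f6 at 0.14 ± 0.28 on the higher side. E2f7, a repressor that peaks in S phase, had 0.3999, 0.198 and 0.728 FPKM in the high dose libraries and 1.05, 1.67 and 1.43 FPKM in the model libraries, against 0.416, 0.241 and 0.821 FPKM in the control libraries. Its model libraries were above all others, but they were also the only ones at 1 FPKM. E2f7 thus entered the test through the group where it was high, and its differences are a description only. In model minus control E2f7 was at 0.68 ± 0.28, Cdk6 at 0.35 ± 0.23 and Cdk2 at 0.35 ± 0.26, and on the lower side E2f6 at -0.51 ± 0.28, Tfdp2 at -0.55 ± 0.36 and Ccnd2. For high dose minus control they were Myc at 0.77 ± 0.42, E2f3 at 0.28 ± 0.31 and Ccnd1 at 0.21 ± 0.29, against Ccnd3 at -0.46 ± 0.26, Cdk6 at -0.36 ± 0.23 and E2f5 at -0.40 ± 0.25.

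Of 19 cycle inhibitors and quiescence genes, 12 were lower in high dose minus model (median -0.25) and 12 higher in model minus control (median 0.24). Cdkn1a, or p21, was at 0.09 ± 0.48 for high dose minus model and 0.15 ± 0.48 for model minus control. Cdkn2a, the locus of p16 and Arf, stayed low, with 0.378, 0.607 and 0.415 FPKM in the high dose libraries and 1.88, 0.722 and 0.528 FPKM in the model libraries, against 0.1096, 0.666 and 0 FPKM in the control libraries. The smallest p in high dose minus model were Cdkn2d, a Cdk4 and Cdk6 inhibitor, at 0.80 ± 0.26, Rbl2 at 0.24 ± 0.20 and Gadd45b at 0.78 ± 0.75, and on the lower side Ccng2 at -1.14 ± 0.33, Cdkn2c at -0.95 ± 0.51 and Gas1 at -0.55 ± 0.31. In model minus control they were Cdkn2b at 0.53 ± 0.29, Gadd45a at 0.98 ± 0.58 and Btg1 at 0.51 ± 0.40, and on the lower side Btg2 at -0.92 ± 0.64, Rbl2 at -0.27 ± 0.20 and Cdkn2d at -0.33 ± 0.26. For high dose minus control they were Gadd45a at 1.40 ± 0.58, Cdkn2d at 0.47 ± 0.26 and Gadd45b at 1.13 ± 0.75, against Gas1 at -0.88 ± 0.31, Ccng2 at -0.85 ± 0.33 and Btg2 at -1.34 ± 0.64. Limma's adjusted p for the genes named in these lists was 0.189 or more.

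Marker lists of other cells differed between the same groups. Several were, like the mitotic genes, mostly higher for model minus control and mostly lower for high dose minus model. The 13 macrophage markers summed to 603, 948 and 3114 FPKM in the high dose libraries and 6135, 3879 and 1505 FPKM in the model libraries, against 408, 784.5 and 250 FPKM in the control libraries. For model minus control 13 of 13 were higher, 12 without overlap, and for high dose minus model 12 of 13 were lower, 1 without overlap. Lyz2 was the largest part of each macrophage sum. It had 422, 479 and 1793 FPKM in the high dose libraries and 4275, 2997 and 958 FPKM in the model libraries. In the control libraries Lyz2 had 213, 579 and 140 FPKM. The 9 erythroid markers summed to 2709 to 21280 FPKM in the high dose libraries and 21390 to 64140 FPKM in the model libraries, against 8855 to 15950 FPKM in the control libraries, mostly globin RNA. For high dose minus model 7 of 9 were lower, 6 without overlap; the precursor receptors Tfrc (8.76 to 14.2 FPKM in the high dose and 7.22 to 17.4 FPKM in the model libraries) and Epor (0.673 to 1.49 FPKM in the high dose and 0.643 to 1.37 FPKM in the model libraries) overlapped.

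**Figure D5:**
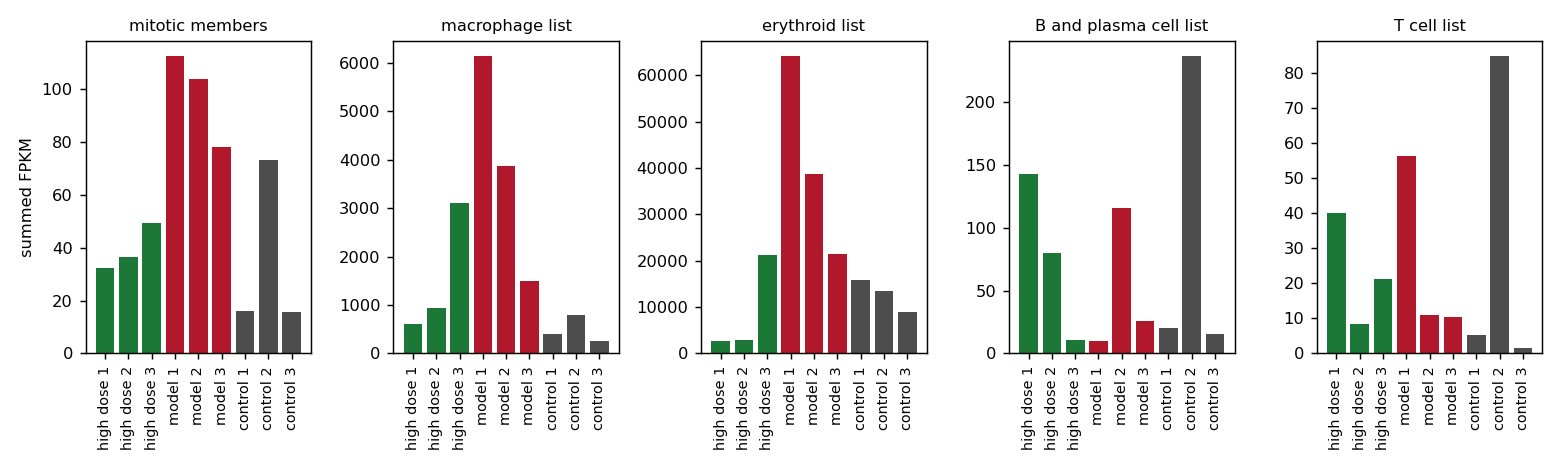
Summed FPKM of the mitotic members and of 4 marker lists in each library, in green for high dose, red for model and grey for control; each panel starts at 0 and has its own scale. The mitotic and macrophage sums are high in model 1 and 2, while the B and plasma cell and T cell sums are highest in control 2.

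The 7 B and plasma cell markers summed to 142.5, 79.4 and 11.0 FPKM in the high dose libraries and 9.76, 115 and 25.4 FPKM in the model libraries, against 19.9, 236 and 15.4 FPKM in the control libraries. Control 2 was highest for this sum, followed by high dose 1 and model 2. The 8 T cell markers summed to 8.43 to 40.0 FPKM in the high dose libraries and 10.3 to 56.4 FPKM in the model libraries, against 1.65 to 84.7 FPKM in the control libraries. The 9 neutrophil and marrow precursor markers summed to 150 to 1081 FPKM in the high dose libraries and 26.7 to 98.1 FPKM in the model libraries, against 1.60 to 89.2 FPKM in the control libraries; of the precursor genes, Mpo and Elane were at most 0.0115 and 0.362 FPKM in the model, but Prtn3 was 0.341, 10.2 and 1.92 FPKM in the model libraries, against at most 0.512 FPKM in the controls. The 9 thymocyte markers summed to 4.43 to 18.4 FPKM in the high dose libraries and 3.12 to 5.78 FPKM in the model libraries, against 1.65 to 37.2 FPKM in the control libraries. Of 8 foam cell markers, 7 were higher for model minus control, 5 without overlap, and 6 were lower for high dose minus model, 0 without overlap. The 6 fibroblast markers had median log2 differences of -1.54 for high dose minus model and 1.67 for model minus control, 4 of them lower and 4 higher. Vessel wall markers were lower for high dose minus model, 6 of 7 in smooth muscle and 6 of 6 in endothelium, each with 1 gene without overlap. Nerve and catecholamine cell markers ran opposite to the mitotic genes, 6 of 6 higher for high dose minus model and 6 of 6 lower for model minus control, all without overlap. Heart muscle markers ran the same way, 8 of 8 in each comparison, 1 and 0 of them without overlap.

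The part of any of these cells in the differences of the cell cycle genes was not tested. Over all genes tested, 6.91% were higher and 9.06% lower without overlap for model minus control. For high dose minus model these shares were 11.7% and 10.9%. For high dose minus control, 13 of 13 macrophage markers were higher, 3 without overlap, while 8 of 9 erythroid markers were lower, 1 without overlap. The shares of all genes tested there were 3.66% higher and 5.02% lower without overlap.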

How the data were processed

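RNA from aortic arch was sequenced in 9 libraries, and groups and replicate numbers were taken from the sample titles. The authors deposited 1 table of FPKM values for 21989 genes, scaled by gene length and library total. Builds GRCm38.p5 and mm10 are named per the submitters' processing notes. How reads were aligned and counted, and with which strandedness, is not given in the sources used here. The table columns misspell the control group and call the model AS, a term that the labels use for that group alone.

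From the deposited values, log2(FPKM + 1) was fitted with limma 3.58.1 in R 4.3.3, with a mean per group over all 9 libraries, an intensity trend and Benjamini-Hochberg adjustment over the 12895 genes that reached 1 FPKM in 3 libraries; all tests are two-sided. Whole fragments were recovered from the steps between FPKM values: 99.96% of genes above 0 in at least 6 libraries gave whole numbers within 0.01 fragments. Data were simulated for model against control, with 200 changed genes drawn from those with a model mean log2(FPKM + 1) above 3. At log2 changes of 1, 2 and 4, 0, 137 and 193 of them were recovered. A log2 difference of 1 would thus usually be missed at those levels. Most members lie below that level, and how often a change in them would be found was not simulated. Depth limits the low mitotic members, and a fragment count covers counting error only. Members and gene lists were chosen with earlier results of these data known. All 44 members are named, and other genes are named by a fixed rule: the 3 lowest p in each direction for each list, plus 6 cell cycle genes. Gene positions are from GENCODE M21 and promoters from RefSeq (GRCm38.p6); Mcm4, Ccne2, Ccna2, Aurkb, Kif20a, Tpx2 and Foxm1 are without a promoter here. Alternatives covered the added constant, the filter, the scaling, library weights, a replicate block and leaving out each library. Figures were drawn with matplotlib 3.10.9.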

Additional observations from a re-analysis of the deposited data

How the results depend on the processing

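Of the alternative values computed, 1046 kept their side of the threshold or, for set medians and means, stayed within the spread between libraries; 5 of these, all set medians, changed sign. Another 17 moved beyond that spread and 14 values of single genes changed sign. A further 15 were single genes that came to pass the threshold or counts of called genes that rose from 0. Array weights called 684 genes and 16 members in model against control and 6 genes in high dose against model. For high dose against model, fitting only those 2 groups called 1 gene, the 5 libraries low in heart muscle genes called 591, and leaving out 1 library called 0 to 46, the highest without high dose 3. The 5 libraries called 229 genes for high dose against control; that choice leaves 1 high dose and 1 control library, assumed to vary like the model libraries. Neither the 5 libraries nor leaving out a library called a member. With 0.1 added before the log, the mitotic median was 1.71 for model against control and -1.34 for high dose against model. With voom weights on recovered fragments, an alternative chosen after seeing the data, it was 2.10 and -1.53; both settings shrink low genes less by construction.

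Among the set medians, that of the replication members was -0.12 to 0.45 without 1 library in model against control, and -0.63 to -0.0081 without 1 library and 0.15 with the 5 libraries in high dose against control; there the mitotic median was -0.037 to 0.37 without 1 library. In model against control, Mcm2 was 0.61 with the 5 libraries, 0.047 with voom weights and -0.42 to 0.35 without 1 library, Mcm5 -0.15 to 0.66 and Mcm6 -0.15 to 0.49. In high dose against model, Mcm2 was -0.40 to 0.060 without 1 library, and Tyms was -0.10 after quantile normalization, -0.073 with the 5 libraries and -0.061 to 0.24 without 1 library. For high dose against control, Mcm6 and Mcm4 were 0.14 and 0.017 with the 5 libraries, against -0.64 and -0.57 with all. The cause of these changes was not tested.

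With replicate numbers as a block (the replicate block), limma called 0 genes in each comparison, with 683, 1452 and 581 genes at an unadjusted p under 0.05 for model against control, high dose against model and high dose against control. Same-numbered libraries did not deviate together: correlations of their deviations ran from -0.522 to 0.306, so the numbers were not taken to pair the samples. The low levels of Kif11, Cenpf, Ttk and Melk limit what their differences can show.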
